A study of Mus with 3 samples.

Results

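The genes described here encode the AMPA-type glutamate receptor and the proteins that travel with it, in the hippocampus of mice given a toxic amyloid fragment with or without the oil of a distilled spirit. There are 9 of them: the 4 pore-forming subunits Gria1, Gria2, Gria3 and Gria4, the transmembrane regulatory proteins Cacng2, Cacng3 and Cacng8, and the cornichon proteins Cnih2 and Cnih3. They were found by the gene name that the array files give each probe, which matched 14 of 39429 gene probes, each printed at 1 spot. The set was chosen by earlier results of these arrays, since the signal differences of Gria1 had been seen to stand apart. All values below are therefore descriptions of these arrays.

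Hippocampal RNA came from male Slc:ddY mice aged 6 weeks, in 3 groups of 10 animals. Mice of the oil group (ASO) were dosed by mouth for 15 days with 2000 mg/kg/day of oil from sweet potato shochu, a distilled spirit, and had 10 nmol of the amyloid peptide Aβ25-35 in 5 µL put into the cerebral ventricles on day 8. ACO mice, the peptide controls, were dosed with distilled water in place of oil and had the same injection. NCO mice, the normal controls, had oral distilled water and 5 µL more of it by a route that the labels do not spell out, so the peptide and the injection itself cannot be told apart here. The labels name the injected groups as ACO and by a second name that no sample carries; ASO was read as that group because the design text calls it injected. Spontaneous alternation in a Y-maze was scored on day 16, and the hippocampus was taken afterwards. RNA was joined in 5 sets of 2 mice, and each group's sets were pooled in equal amounts onto 1 array. With 1 array a group there is no replicate, so no test between groups was possible and no p-value is given.

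AMPA receptors are glutamate-gated ion channels that carry most fast excitatory transmission in the brain, and each is an assembly of subunits. Where edited GluA2, the Gria2 product, is among them, it keeps calcium from passing. In hippocampal pyramidal cells the subunits combine with regulatory proteins of the Cacng family and with cornichons, which change how fast the channel closes and how much receptor reaches the surface. Receptors are added to synapses and removed from them during long-term potentiation and depression, which are studied as cellular forms of memory, and soluble amyloid peptides are known to lower the number of AMPA receptors at synapses.

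The arrays held enough signal to read 13 of the 14 probes. A probe counted as measured where the scanner software scored its signal to noise at 2.6 or more, which 50.9% to 53.7% of all gene probes reached on an array. Signals are background-corrected intensities scaled so that the 3 arrays shared a 75th percentile, and a difference is log2 (signal + 50) on one array minus that on the array it is set against. The added 50 draws the differences of dim probes towards 0. The error given with a difference is a spot SD. It is the median SD among the 20 probes nearest in brightness of those printed at 10 spots. How near they had to be was not limited, and the 2 bright Cnih2 probes share the same spot SD in each comparison. The spot SD holds spot error only and says nothing of differences between mice. Genes listed as markers of the hippocampal cell fields were sought on all 3 arrays. Measured on each array were 5 of 6 CA1 genes, 4 of 5 CA3 genes and 5 of 6 dentate granule cell genes. Markers of neighbouring tissue reached the same score, namely 6 of 6 for choroid plexus, 5 of 5 for thalamus and habenula and 4 of 4 for cortex. Whether the signal of any of these markers came from RNA of the field or tissue it is listed for was not tested.

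**Figure D1:**
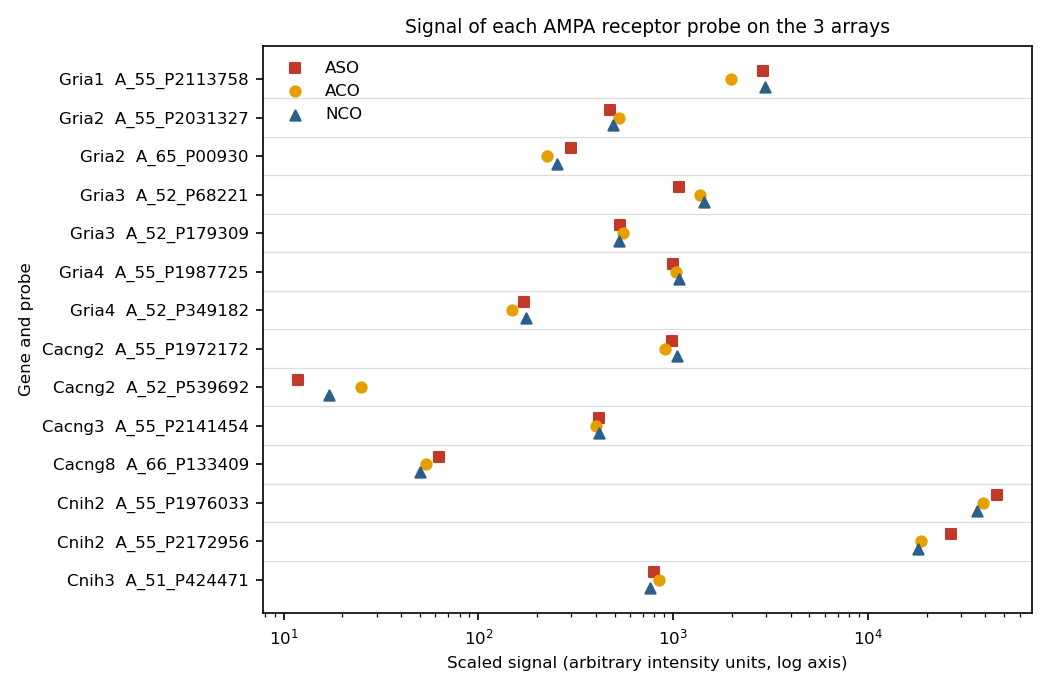
Scaled signal (log axis, arbitrary intensity units) of each of the 14 probes on the ASO array (squares), the ACO array (circles) and the NCO array (triangles), 1 value each. Gria1 stands at 2873 on ASO, 1983 on ACO and 2943 on NCO, both Cnih2 probes are highest on ASO, and the dim Cacng2 probe A_52_P539692 lies near background on every array.

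Gria1, which encodes the subunit GluA1 that is inserted into synapses on potentiation, was read by 1 probe, A_55_P2113758, whose listed targets include both transcript variants NM_001113325 and NM_008165. Its signal was 2873 on ASO, 1983 on ACO and 2943 on NCO. ACO thus stood below both other arrays, while ASO and NCO lay side by side. The uncorrected foreground medians ran the same way, at 2927 on ASO, 2110 on ACO and 2796 on NCO, over local backgrounds of 43, 38 and 46.

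For ACO against NCO the Gria1 difference was -0.56, a fold of 0.68, with a spot SD of 0.07. Among 19295 measured probes, 62 had a difference as low or lower, which is 0.321%. For ASO against ACO the difference was 0.52, a fold of 1.44, with a spot SD of 0.08, and 629 of 19714 measured probes stood as high or higher. ASO and NCO differed by -0.03, which is less than the spot SD of 0.09. The first 2 of these comparisons share the ACO array, so the same ACO spot enters both. Gria1 had been singled out because its differences on these arrays stood apart, so nothing is read from its ranks.

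Values around the Gria1 spot were close to 0. The well measured spots within 5 rows and 5 columns of it had a median difference of 0.0031 for ACO against NCO and 0.054 for ASO against ACO. The 500 probes nearest to it in brightness had medians of 0.0013 and -0.048. Spike-in control transcripts come from outside the tissue. Their medians over 6 probes were -0.14 for ACO against NCO and 0.46 for ASO against ACO. Of the 6 probes, 0 were above 0 in the first comparison and 6 in the second. The part of the spike-in differences in the Gria1 values was not tested. In the authors' deposited table, which holds Gria1 as the only one of the 14 probes, its values are 2574.9 for ASO, 1892.8 for ACO and 2751.8 for NCO, or log2 ratios of -0.54 for ACO against NCO, 0.44 for ASO over ACO and -0.096 for ASO over NCO. No second probe carries the name Gria1 in the files used here. The Gria1 values thus rest on 1 probe. Over genes with at least 2 measured probes, the differences of 2 probes correlated only at 0.15 for ACO against NCO. In a tissue pool, fewer cells of a type and less RNA per cell cannot be told apart, for Gria1 or any other gene below.

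Gria2, whose edited transcript yields the subunit that blocks calcium entry, had 2 probes that list different transcript variants. Probe A_55_P2031327, listed for NM_001083806 and NM_013540, had a signal of 476 on ASO, 526 on ACO and 491 on NCO. Probe A_65_P00930, listed for NM_001039195, had 299 on ASO, 224 on ACO and 254 on NCO. ACO was the highest array by the first probe and the lowest by the second, so the arrays have no common order for Gria2.

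Between ASO and ACO the 2 Gria2 probes differed by -0.13 and 0.35, with spot SDs of 0.09 and 0.10. The gap of 0.48 between them was reached by 7.51% of the 3090 genes with at least 2 measured probes in that comparison. For ACO against NCO they stood at 0.09 and -0.15, and for ASO against NCO at -0.04 and 0.20. Only the NM_001039195 probe passed 1.2-fold, and only for ASO against ACO, where 92.2% of measured probes lay at or below it.

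Gria3, a subunit that pairs mainly with GluA2, also had probes that disagreed. Probe A_52_P68221 had a signal of 1070 on ASO, 1367 on ACO and 1441 on NCO, and probe A_52_P179309 had 536 on ASO, 549 on ACO and 527 on NCO. Both probes list the transcript NM_016886, while their other listed targets differ in part. The ASO array stood low by the first probe alone. That probe differed by -0.34 for ASO over ACO and -0.41 for ASO over NCO, with spot SDs of 0.09 and 0.11, and by -0.07 for ACO against NCO. Well measured spots around it had medians of 0.05 for ASO over ACO and -0.05 for ASO over NCO. The second probe lay within 0.06 of 0 in all 3 comparisons. A gap as large as theirs for ASO against NCO, 0.44, was found in 9.86% of genes with at least 2 measured probes.

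Gria4 is a subunit used more by interneurons and by the developing hippocampus. It varied least of the 4 subunits when each was read by its brightest probe, though the dimmer Gria3 probe varied less still. Probe A_55_P1987725 had a signal of 1002 on ASO, 1032 on ACO and 1067 on NCO, and probe A_52_P349182 had 171 on ASO, 149 on ACO and 176 on NCO. The 3 arrays lay close together by the brighter probe, and ACO was lowest by the dimmer one. Differences of the brighter probe were -0.05 for ACO against NCO, -0.04 for ASO over ACO and -0.09 for ASO over NCO, each below its spot SD of 0.07, 0.09 and 0.09. Those of the dimmer probe were -0.18, 0.16 and -0.03, with spot SDs of 0.11, 0.11 and 0.13.

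**Figure D2:**
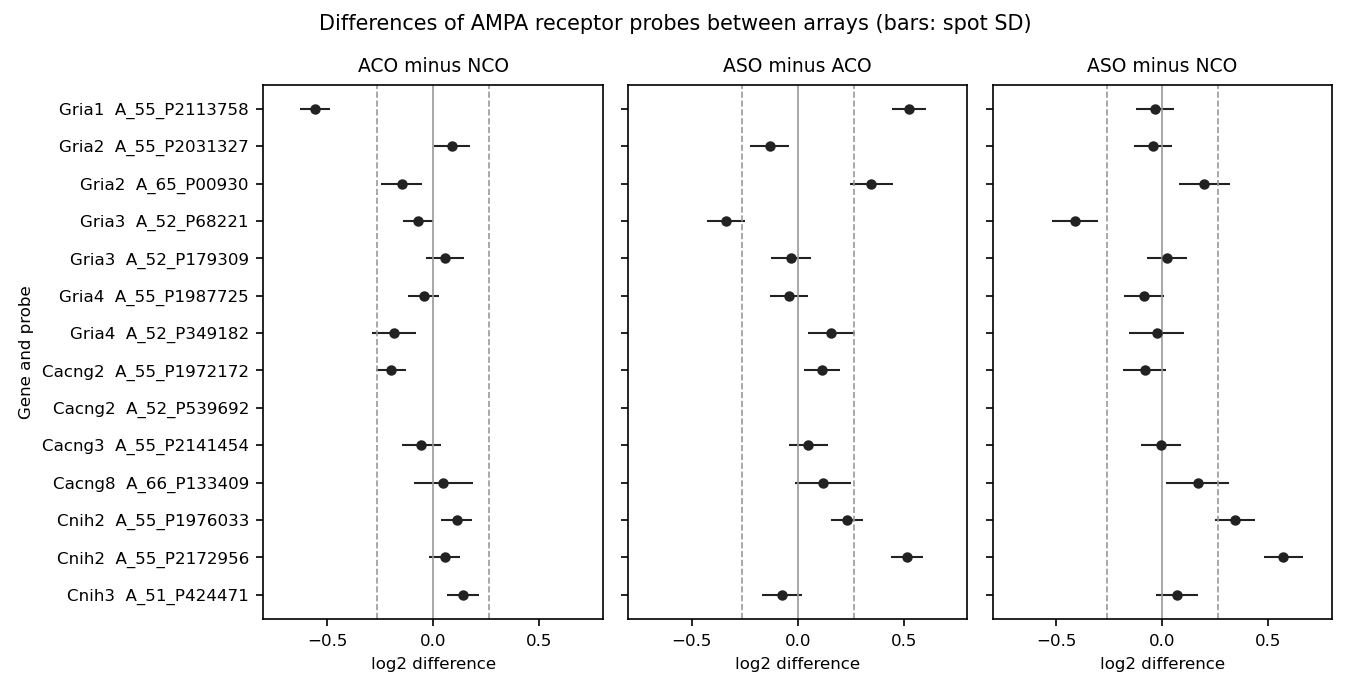
Log2 difference of each probe (points) with its spot SD (bars) for ACO minus NCO, ASO minus ACO and ASO minus NCO; dashed lines mark 1.2-fold, and the Cacng2 probe that was not well above background has no point. Gria1 is the only probe past 1.2-fold for ACO minus NCO, at -0.56, and it stands at 0.52 for ASO minus ACO.

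Cacng2, which encodes stargazin, the founding regulatory protein that carries AMPA receptors to the surface, was read by probe A_55_P1972172 with a signal of 983 on ASO, 904 on ACO and 1044 on NCO. ACO was the lowest of the 3 arrays. The difference was -0.20 for ACO against NCO, with a spot SD of 0.07, then 0.11 for ASO over ACO and -0.08 for ASO over NCO. The second probe, A_52_P539692, had signal to noise scores of 0.000 on ASO, 0.600 on ACO and 0.182 on NCO. It was not well above background on any array, and no fold is given for it.

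Cacng3, a close relative of stargazin, had nearly the same signal on the 3 arrays, 416 on ASO, 400 on ACO and 418 on NCO. Its differences of -0.06 for ACO against NCO, 0.05 for ASO over ACO and -0.0061 for ASO over NCO were all below the spot SD of 0.09 to 0.10. Cacng8, the family member enriched in the hippocampus, was read by a dim probe at 62.4 on ASO, 53.6 on ACO and 50.1 on NCO, with signal to noise scores of 3.36, 3.15 and 3.18. Those scores are just above the limit of 2.6. Its differences were 0.05, 0.12 and 0.17, with spot SDs of 0.14, 0.13 and 0.15.

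Cnih2, the cornichon that slows receptor closing in hippocampal pyramidal cells, was highest on the ASO array by both of its probes. Probe A_55_P1976033 had a signal of 45881 on ASO, 39064 on ACO and 36173 on NCO, and probe A_55_P2172956 had 26715 on ASO, 18682 on ACO and 17983 on NCO. No pixel of either spot was saturated on any array. The 2 probes differed by 0.23 and 0.51 for ASO against ACO, by 0.34 and 0.57 for ASO against NCO, and by 0.11 and 0.05 for ACO against NCO, with spot SDs of 0.07 to 0.09. Both probes of Cnih2 therefore stood above 0 in all 3 comparisons, by less than the spot SD only at A_55_P2172956 for ACO against NCO.

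Other bright probes were also higher on ASO. The 500 probes nearest in brightness had medians of 0.15 and 0.11 for ASO against ACO and of 0.08 and 0.06 for ASO against NCO, in the order of the 2 probes. The well measured spots around the 2 Cnih2 probes had medians of 0.16 and 0.13 for ASO against ACO and of 0.18 and 0.13 for ASO against NCO. With quantile normalization probe A_55_P1976033 stood at 0.05 for ASO over ACO and 0.23 for ASO over NCO, below 1.2-fold, and probe A_55_P2172956 at 0.37 and 0.48. All 6 spike-in probes were brighter on ASO than on NCO as well, with a median of 0.32. Their part in the Cnih2 values was not tested.

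Cnih3, the related cornichon gene, had a signal of 797 on ASO, 840 on ACO and 757 on NCO. ACO was the highest array, by 0.14 over NCO with a spot SD of 0.08, while ASO stood at -0.07 against ACO and 0.07 against NCO. The Cnih3 spot had signal to noise scores of 40.3 on ASO, 6.82 on ACO and 9.92 on NCO, at similar signals. That score divides the signal by the SD of the local background.

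**Figure D3:**
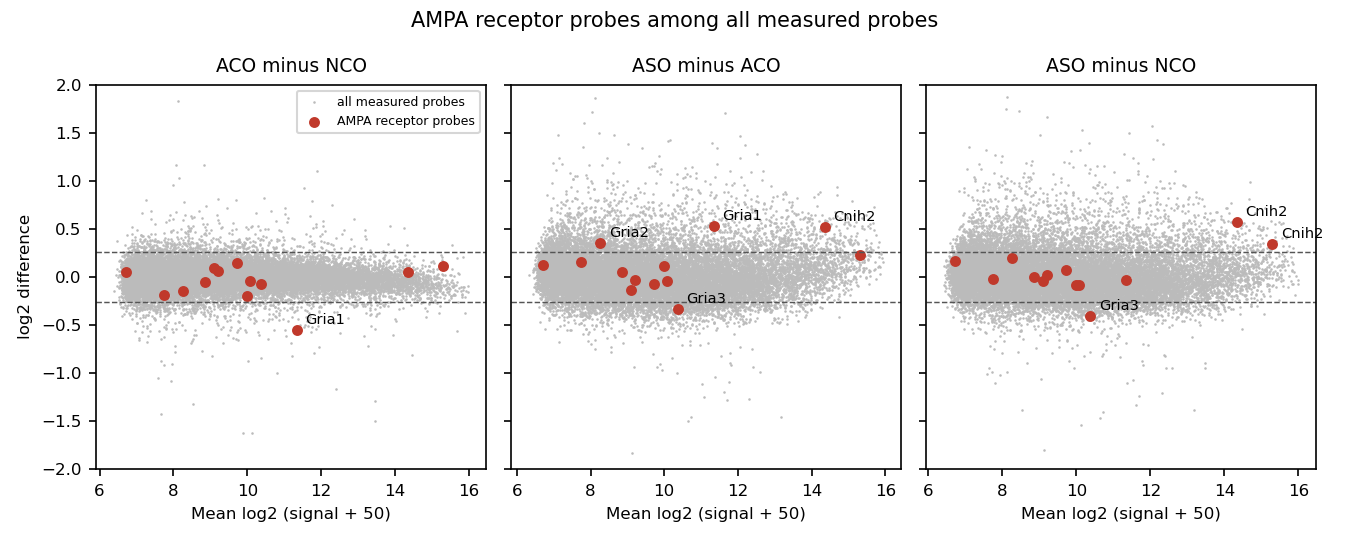
Log2 difference against mean log2 (signal + 50) for all measured probes (grey) and the 13 measured AMPA receptor probes (red), with genes named where past 1.2-fold (dashed lines); 3, 3 and 4 grey probes beyond 2 on the log2 scale are outside the 3 panels. Gria1, for which the set was chosen, is at -0.56 for ACO minus NCO, and more grey probes lie past 1.2-fold in both comparisons with ASO.

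Counted over the set, the comparison of the peptide with normal controls had 1 probe past 1.2-fold, and those with the oil had 4 and 3. For ACO against NCO, 1 of 13 measured probes, that of Gria1, was at least 1.2-fold lower, where 3.11% of all measured probes were, and 0 were at least 1.2-fold higher, where 2.75% were. Between ASO and ACO, 3 of 13 were higher, where 12.9% of all probes were, and 1 was lower, where 7.99% were. For ASO against NCO, 2 of 13 were higher, where 12.8% of all probes were, and 1 was lower, where 7.57% were. The probes higher on ASO than on ACO were those of Gria1, Gria2 (A_65_P00930) and Cnih2 (A_55_P2172956), those higher than on NCO were both of Cnih2, and the lower probe was A_52_P68221 of Gria3 each time. Nothing is read from these shares, since the set was chosen with the differences known.

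Members lay on both sides of 0 in each comparison. By the brightest measured probe of each gene, the median over the 9 genes was -0.05 for ACO against NCO, with 5 genes below 0, 0.05 for ASO against ACO, with 4 below 0, and -0.03 for ASO against NCO, with 6 below 0. The medians over all genes were 0.0048, -0.013 and -0.014. With the arrays scaled to their median in place of the 75th percentile, the set's median for ASO against ACO was -0.05 and that of all 13571 genes -0.11, so its sign depends on the scaling. Leaving Gria1 aside, the other 12 measured probes lay between -0.20 and 0.14 for ACO against NCO, between -0.34 and 0.51 for ASO against ACO and between -0.41 and 0.57 for ASO against NCO.

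Other genes of the receptor's pathway were taken from a list of 58, of which 51 were measured for ACO against NCO. There, 1 was at least 1.2-fold higher and 1 lower, where 2.76% and 2.72% of all 13318 genes were, and the list's median was -0.011. Grip1, a PDZ scaffold that binds the tails of GluA2 and GluA3, stood at 0.27, with a signal of 441 on ACO and 357 on NCO. Dlg1, which encodes SAP97, a scaffold that binds GluA1, stood at -0.27, with 757 on ACO and 921 on NCO. Next highest were Gripap1 and Cacng5 at 0.17. Next lowest were Adarb1 at -0.21 and Adar at -0.20, the genes of RNA editing enzymes, of which the Adarb1 product edits the Gria2 transcript.

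Set against ACO, the ASO array had 4 of 51 pathway genes at least 1.2-fold higher and 4 lower, where 10.1% and 9.26% of all 13571 genes were, with a list median of -0.0021. The higher genes were Ppp3ca, the catalytic subunit of the phosphatase calcineurin, at 0.40, Adarb1 at 0.38, Nsg1, an endosomal trafficking protein, at 0.33 and Abhd6, a hydrolase that binds receptor subunits, at 0.31. Adarb1 had a signal of 5618 on ASO, 4310 on ACO and 4989 on NCO, so the ACO array was lowest, as it was for Gria1. The lower genes were Cnih1, a cornichon of general secretory transport, at -0.43, Sacm1l, a lipid phosphatase of the endoplasmic reticulum, at -0.37, Arc, an activity-induced gene whose product drives receptor endocytosis, at -0.29 and Akap5, an anchor of kinases and calcineurin at the receptor, at -0.28. Cnih1 had a signal of 6682 on ASO and 9024 on ACO, opposite in direction to Cnih2.

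For ASO against NCO, 2 of 53 pathway genes were at least 1.2-fold higher and 3 lower, where 10.3% and 8.31% of all 13461 genes were, with a list median of -0.04. Abhd6 stood at 0.39 and Ppp3ca at 0.29, and Hip1, an endocytic adaptor, was just inside 1.2-fold at 0.26. The lower genes were Dlg1 at -0.39, Cnih1 at -0.37 and Myo5a, a motor that moves receptor cargo into spines, at -0.34. Dlg1 had a signal of 694 on ASO against 921 on NCO, and Abhd6 had 856 on ASO against 639 on NCO.

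By role, the 12 measured auxiliary genes outside the set lay between -0.18 and 0.17 for ACO against NCO, with 0 past 1.2-fold, where 2.76% of all genes were higher and 2.72% lower. Of the 12, Cnih1 alone was past it in each comparison with ASO, as given above. On the ASO array 9.26% of all genes were at least 1.2-fold lower than on ACO, and 10.1% were higher. Relative to NCO those shares were 8.31% and 10.3%. Shisa7, an auxiliary protein of hippocampal receptors, stood at -0.06 for ACO against NCO, 0.10 for ASO over ACO and 0.04 for ASO over NCO. Of the 14 measured scaffold and trafficking genes, 10 were below 0 for ACO against NCO, with a median of -0.08, beside a median of 0.0048 over all genes, and Dlg4, the main postsynaptic scaffold PSD-95, was at -0.08. All 8 measured kinase and phosphatase genes lay within 1.2-fold for ACO against NCO, where the same shares of all genes did not. Below 0 were 7 of the 8, beside 6421 of all 13318 genes, among them Camk2a, the kinase of potentiation, at -0.02 and Camk2b at -0.13.

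The 6 biogenesis genes had medians of 0.04 for ACO against NCO, 0.02 for ASO over ACO and -0.07 for ASO over NCO. Both measured RNA editing genes were below 0 for ACO against NCO and above 0 for ASO against ACO, comparisons that share the ACO array. The 7 genes of endocytosis and activity had medians of 0.04, 0.08 and 0.06 in the same order of comparisons. Of the extracellular clustering genes, 2 were measured for ACO against NCO and for ASO against ACO, with medians of -0.016 and -0.098. For ASO against NCO 4 were measured, all below 0, beside 7117 of all 13461 genes, with a median of -0.10. In any comparison 0 were past 1.2-fold, where 2.76% to 10.3% of all genes were higher and 2.72% to 9.26% lower. With so few genes measured, nothing is read from these counts.

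**Figure D4:**
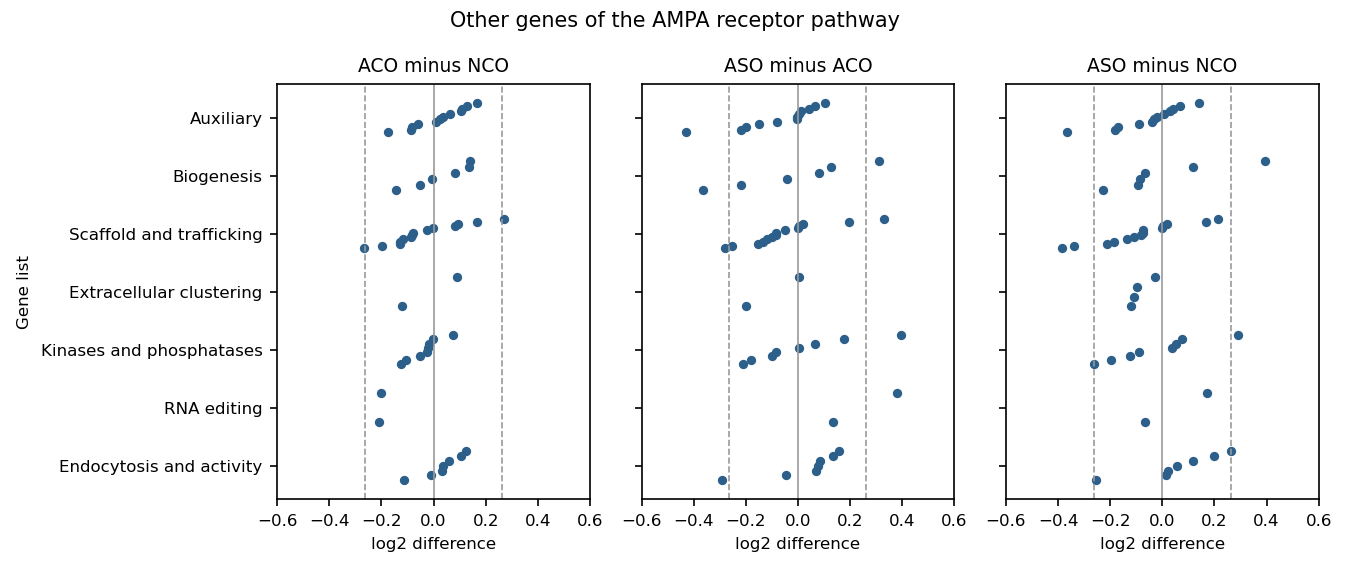
Log2 difference of each measured gene of the receptor's pathway outside the set (points, by list) for ACO minus NCO, ASO minus ACO and ASO minus NCO; dashed lines mark 1.2-fold. Grip1 at 0.27 and Dlg1 at -0.27 are the only points past it for ACO minus NCO, and Cnih1 at -0.43 and Ppp3ca at 0.40 are the ends for ASO minus ACO.

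Markers of neurons and of other cells were read on the same arrays. For ACO against NCO, CA1 pyramidal markers had a median of -0.12 with 4 of 5 measured below 0, CA3 markers -0.11 with 3 of 4 below 0, and pan-neuronal markers -0.04 with 5 of 8 below 0. The summed signal of the CA1 markers was 21218 on ACO and 22229 on NCO. In these 3 lists 1 marker was at least 1.2-fold higher, Snap25 at 0.29, and 0 were lower, where 2.76% and 2.72% of all genes were. The lowest was Tubb3 at -0.24. Dentate granule cell markers had a median of 0.10 with 3 of 5 above 0, and Dsp at 0.32 was the highest of them. Oligodendrocyte markers had a median of -0.15 with 6 of 6 below 0. Microglial markers had a median of 0.14 with 4 of 6 above 0, among them P2ry12 at 0.37 and Aif1 at 0.31. Choroid plexus markers had a median of 0.50 with 5 of 6 above 0, while Ttr stood at -0.46. Over all 13318 genes, 6897 were above 0 and 6421 below. Nothing is read from counts over so few markers. The part of these cells in the Gria1 value was not tested.

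Between ASO and ACO, CA1 markers had a median of 0.09 and CA3 markers 0.10, while dentate granule cell markers were at -0.32 with 5 of 5 measured below 0. The summed signal of the dentate markers was 2279 on ASO and 3023 on ACO. Calb1 at -0.49 was the lowest of them, with a signal of 915 on ASO and 1304 on ACO. Astrocyte markers had a median of 0.18 with 6 of 6 above 0, and microglial markers 0.20 with 5 of 6 above 0. Pan-neuronal markers stood at 0.04, with Snap25 at 0.29 and Nefl at -0.21. Oligodendrocyte markers had a median of 0.15 with 5 of 6 above 0, and choroid plexus markers -0.19 with 5 of 6 below 0. Between ASO and NCO, dentate granule cell markers had a median of -0.26 with 4 of 5 below 0, astrocyte markers 0.15 with 5 of 6 above 0 and microglial markers 0.22 with 5 of 6 above 0. Over all genes, 6389 of 13571 were above 0 for ASO against ACO, and 6344 of 13461 for ASO against NCO. With so few markers in a list, nothing is read from these counts. The part of these cells in the Gria3 and Cnih2 values was not tested.

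Genes whose pattern over the 3 arrays was nearest to that of Gria1 were sought among 9895 named genes at or above the lower quartile of brightness, by distance over the pair of differences ACO minus NCO and ASO minus ACO. The nearest 5 were Rsrp1, at a distance of 0.07, Abhd1 at 0.11, LOC100504004 at 0.12, H4c4 at 0.14 and Csn3 at 0.16. None of them is in the pathway lists above. Rsrp1 had a signal of 6267 on ASO, 4562 on ACO and 6848 on NCO. A distance over 3 arrays describes likeness on these arrays and nothing further.

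**Figure D5:**
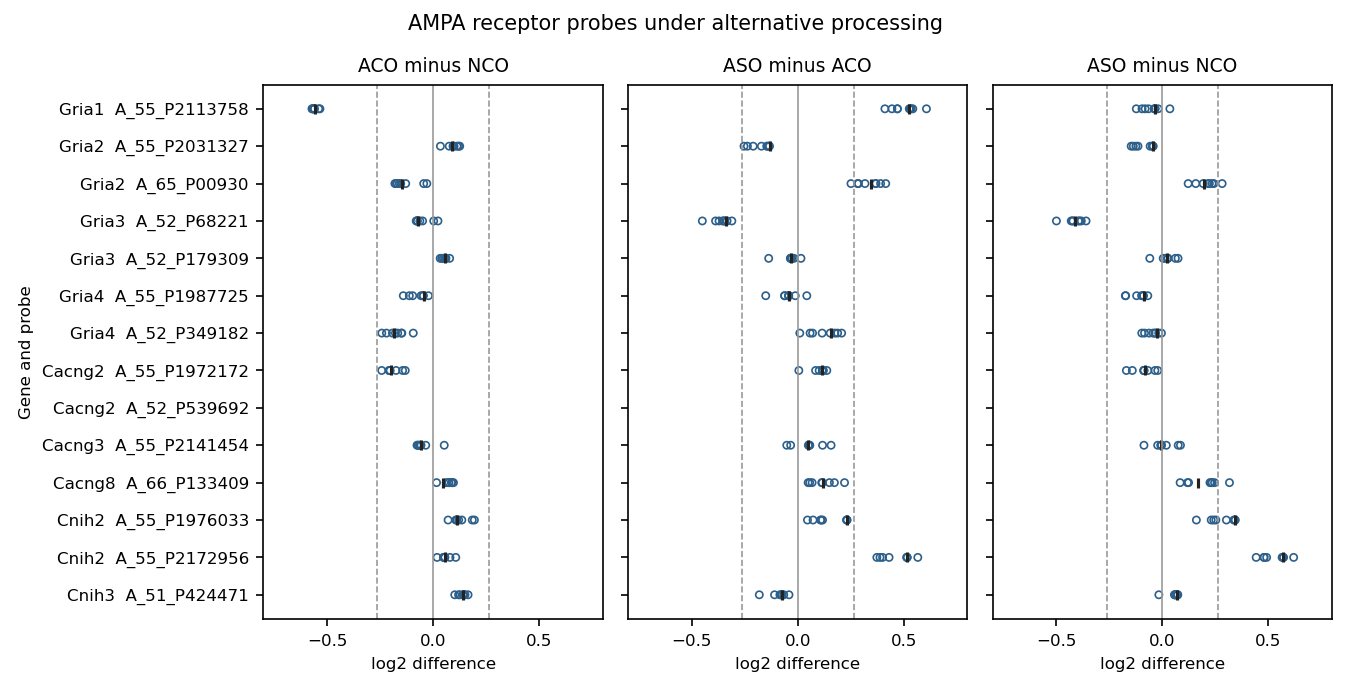
Log2 difference of each measured probe as reported (black ticks) and under each alternative setting (open circles) for the 3 comparisons; dashed lines mark 1.2-fold. Gria1 stays between -0.57 and -0.53 for ACO minus NCO, while Cnih2 probe A_55_P1976033 ranges from 0.16 to 0.34 for ASO minus NCO.

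Across the alternative settings, the Gria1 difference lay between -0.57 and -0.53 for ACO against NCO and between 0.41 and 0.61 for ASO against ACO, past 1.2-fold under all 9. For ASO against NCO it lay between -0.12 and 0.04. Gria3 probe A_52_P68221 lay between -0.45 and -0.31 for ASO against ACO and between -0.50 and -0.36 for ASO against NCO over 8 settings. The Gria2 probe A_65_P00930 fell short of 1.2-fold for ASO against ACO with median scaling, at 0.25.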

How the data were processed

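Each array was scanned at 532 nm with a GenePix 4000B and read in GenePix Pro 6.1.0.4, and the deposited foreground and local background intensities are raw, per the file headers. GenePix Pro also gave the deposited signal to noise score, spot marks and percent of pixels at saturation. The submitters' processing notes name Agilent Feature Extraction, whose processed signal the planned design assumed; GenePix foreground medians took its place. The authors' deposited table of intensities holds 475 probes and is a straight line of the foreground median on each array, with slopes of 0.893, 0.917 and 1 on ASO, ACO and NCO and 43.1, 46.8 and 44.2 subtracted; its medians are 113.3, 97.4 and 116.8, and the reason for the slopes stays unknown.

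All 45220 spots were background-corrected by normexp (limma 3.58.1 in R 4.3.3, saddle fit, offset 0). Control spots were then left out, and the 43020 gene spots brought to the same 75th percentile by multiplying ASO by 0.991, ACO by 0.949 and NCO by 1.06. After 50 was added, values were taken to log2 and spots of a probe averaged. A probe entered a comparison with a score of at least 2.6 on both arrays, unless saturated on both or marked bad. A RefSeq table (assembly GRCm38.p6) served only to update gene names and matched 26581 probes by accession, 2597 by symbol, 490 by synonym and 21 through listed hits. The name in the array file was left on 1788, and 7952 stayed unnamed. The brightest entered probe stood for its gene. Over genes with at least 2 measured probes, the differences of the 2 brightest probes had Pearson correlations of 0.15, 0.24 and 0.21. Those are for ACO against NCO, ASO against ACO and ASO against NCO, with median gaps of 0.10, 0.16 and 0.16. A gene's value is therefore that of 1 probe, and another probe of the gene can differ. The size rule was 1.2-fold, 0.263 on the log2 scale. Python 3.11.15, numpy 2.4.6 and pandas 2.3.3 did the rest, and the steps were tested on simulated arrays.

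The members and lists were chosen with earlier results of these data known. Named genes were every member probe, the 3 highest and 3 lowest pathway genes of a comparison with all past 1.2-fold, and the 5 genes nearest to Gria1; Shisa7, Dlg4, Camk2a, Camk2b and the single markers were picked with their values in view. The lists held markers of neurons, CA1, CA3, dentate granule cells, interneurons, astrocytes, oligodendrocytes and their precursors, microglia, choroid plexus, thalamus and cortex. Median differences for ACO against NCO, ASO against ACO and ASO against NCO were 0.0053, 0.0021 and -0.04 for interneurons, -0.15, 0.15 and -0.02 for oligodendrocytes, -0.014, 0.14 and 0.12 for their precursors, 0.09, -0.0019 and 0.16 for thalamus and habenula, and -0.08, 0.04 and -0.17 for cortex.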

Additional observations from a re-analysis of the deposited data

How the results depend on the processing

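No paired analysis was possible because each group had 1 array. The counts of probes past 1.2-fold were computed under 10 alternatives and the medians over the member genes under 11, of which the stricter filter, a score of 5 or more, leaves out Cacng8. The alternatives changed the background correction, the spot summary, the scaling, the added constant, the filter on dim probes, the probe that stands for a gene or the correction by surrounding spots, the last with well measured spots only being chosen after seeing the data. Of 93 counts and medians, 88 stayed within 1.5 times the count or within the spot SD. For ASO against NCO the count of higher probes was 1 with quantile normalization, with median scaling and with correction by the surrounding gene spots, against 2. For ASO against ACO the count of lower probes was 2 with no filter on dim probes, which lets in the second Cacng2 probe, and the median over the 9 genes was -0.052 with median scaling, against 0.051. Over the alternatives these medians ranged from -0.057 to 0.023 for ACO against NCO, -0.052 to 0.107 for ASO against ACO and -0.123 to 0.019 for ASO against NCO, so none has a settled sign. With 0 added before the log, Cacng8 stood at 0.32 for ASO against NCO and the count of higher probes there was 3. With the correction by well measured spots the count for ASO against NCO remained 2, but Gria2 probe A_65_P00930 at 0.28 took the place of Cnih2 probe A_55_P1976033 at 0.16. Of 315 differences of single probes, 279 moved by less than the spot SD, and none past 1.2-fold changed sign. Signal over background limits Cacng8 and the second Cacng2 probe, and 1 array a group limits every value.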
